A study of Homo sapiens with 12 samples.

Results

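EMP1, EMP3 and TM4SF1, together with the tetraspanins CD9, CD37, CD53, CD63, CD81 and CD82, are small proteins that cross the cell membrane several times. These 9 genes were followed by symbol among the 26210 genes of the expression table, in all 12 libraries. The set was chosen by the rise of EMP1 and TM4SF1 in FPKM after phorbol myristate acetate (PMA), which is among the largest in the data, so the PMA values of all 9 genes are given as a description and carry no test. All 9 were among the 14679 genes that passed the filter for testing (at least 1 FPKM in at least 2 libraries), but EMP1 and TM4SF1 passed through the PMA libraries alone and 7 of the 9 reached 1 FPKM in 2 untreated libraries.

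Total RNA was sequenced in 6 groups of 2 libraries each. L428, L1236 and KM-H2 are classical Hodgkin lymphoma (cHL) lines, untreated and grown in IMDM. The controls grew in RPMI: Reh, a B-cell precursor leukaemia line whose labels call it a pro-B lymphoblastic leukaemia, and Namalwa, a Burkitt lymphoma line, both untreated, plus Reh cells given 2 ng/ml PMA, a phorbol ester that activates protein kinase C. The duration of PMA for these libraries is not stated in the sources used here, each line stands for 1 tumour, and the medium changes together with the contrast of cHL and control lines, so the 2 cannot be told apart. Libraries were made in duplicate and nothing states that duplicates were separate cultures, so p-values measure the spread between these libraries, which may be technical.

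Values are FPKM (fragments scaled to transcript length and to the fragments sequenced), and duplicates are given in the order of their column suffix, 0 then 1. FPKM summed to between 659355 and 1124625 per library, and the read depth is unknown. The Reh, PMA-treated Reh and Namalwa duplicates correlated at r = 0.985, 0.970 and 0.977 on the log2(FPKM + 1) scale, and those of L428, L1236 and KM-H2 at 0.906, 0.919 and 0.922. Small nucleolar RNA genes took 40.5%, 35.6% and 28.9% of the summed FPKM in the second L428, L1236 and KM-H2 libraries and 10.3% to 19.7% in the other 9. The 6 B lineage marker genes summed to between 900.5 and 1377 FPKM in Reh, PMA-treated Reh and Namalwa, and to between 2.55 and 34.7 FPKM in the cHL lines. CD79A and CD79B gave most of the sums in Reh, PMA-treated Reh and Namalwa, and MS4A1 was at most 0.229 FPKM in untreated Reh. PAX5 gave nearly all of the L1236 sums, at 33.8 and 19.8 FPKM, against 11.3 and 17.4 FPKM in PMA-treated Reh. The 4 Hodgkin marker genes (TNFRSF8, CCL17, FSCN1 and CSF1R) summed to between 117 and 1457 FPKM in the cHL lines and to between 0.967 and 42.2 FPKM elsewhere. TNFRSF8, CCL17 and FSCN1 carried these sums, while CSF1R was at most 2.05 FPKM in the cHL lines and 11.8 and 11.2 FPKM in PMA-treated Reh.

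Tetraspanins organise the plasma membrane: they bind one another and partner proteins such as integrins and the protease ADAM10, and so place these partners in membrane domains. CD63 also marks late endosomes and, with CD9 and CD81, the extracellular vesicles that cells release. EMP1 and EMP3 belong to another family, that of the peripheral myelin protein PMP22, and TM4SF1 to the L6 family, which resembles the tetraspanins in shape. Lymphoid cells are known for CD37, CD53, CD81 and CD82, whereas EMP1 and TM4SF1 are better known from epithelial and endothelial cells.

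The promoter sequences of EMP1 and TM4SF1 are shown because these 2 genes went from next to nothing to high levels in the same cells. They were taken from RefSeq (GRCh38.p14 table), and each matched the GRCh37 genome, the build of the data (hg19), at 1 place. Capitals mark matches to TGANTCA or to the kappaB consensus. TGANTCA reads the same on both strands and is looser than the core recognised by AP-1 factors, TGAGTCA or TGACTCA. The EMP1 stretch ends 11 bases before the RefSeq start and the TM4SF1 stretch 51 bases before it, so that neither enters the annotated gene.
EMP1, chr12:13349410-13349649, plus strand: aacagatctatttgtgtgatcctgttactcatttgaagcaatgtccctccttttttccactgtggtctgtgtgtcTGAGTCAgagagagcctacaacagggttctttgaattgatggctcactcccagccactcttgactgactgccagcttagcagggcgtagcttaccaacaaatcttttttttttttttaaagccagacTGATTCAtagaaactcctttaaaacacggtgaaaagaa
TM4SF1, chr3:149095487-149095686, minus strand: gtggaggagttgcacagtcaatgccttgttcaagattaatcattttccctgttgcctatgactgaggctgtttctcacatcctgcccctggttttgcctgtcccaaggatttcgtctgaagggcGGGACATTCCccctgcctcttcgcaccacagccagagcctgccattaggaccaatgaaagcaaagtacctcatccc
In the 250 bases before its start, EMP1 held 2 TGANTCA matches, TGAGTCA beginning at position -175 and TGATTCA beginning at -48. Only the match at -175 is the AP-1 core. TM4SF1 held no TGANTCA and 1 kappaB match, GGGACATTCC beginning at -126. Of 35093 promoters of this length, 6.57% held TGANTCA with any middle base, 1.65% held TGACGTCA and 5.20% held a kappaB match on either strand. Of the 8 CD63 promoters listed, 1 held a TGANTCA match (TGACTCA at -129) and an overlapping pair shared 1 kappaB match, all inside the annotated gene. None of the listed promoters of CD9, CD53, CD82 or EMP3 held any of these motifs, and no promoter of CD37 or CD81 was listed. These matches are descriptions of the letters and were not tested as sites.

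EMP1 (epithelial membrane protein 1, chr12:13349657-13372875, GRCh37) was close to 0 FPKM in untreated Reh and far above it after PMA. Its level was 0.0775 and 0.157 FPKM in untreated Reh and 523 and 160 FPKM after PMA. In the other lines it was 0.0774 and 0 FPKM in Namalwa, 0.333 and 0.537 FPKM in L428, 0.188 and 0.133 FPKM in L1236, and 0 and 0.0659 FPKM in KM-H2. Both PMA libraries thus stood above all 10 others, and none of the untreated libraries reached 1 FPKM. The difference between PMA-treated and untreated Reh was 8.02 on the log2(FPKM + 1) scale (SE 0.43), the 12th largest of 14679 genes and the 2nd of 14533 once small nucleolar RNA genes were set aside. With a pseudocount of 0.1 FPKM in place of 1, it was 10.4.

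TM4SF1 (chr3:149086809-149095479, minus strand), an L6-family protein linked to cell motility, had the same shape. It was listed at 0 in every untreated library except the second L1236 library (0.0572 FPKM) and measured 291 and 111 FPKM after PMA. Since both untreated Reh libraries are at 0, no fold is given; the log2(FPKM + 1) difference was 7.50 (SE 0.35), the 15th largest of all genes and the 5th without small nucleolar RNAs, and 6.81 without the first PMA library. In that shorter order the chemokine gene CCL3 (8.93) stood just above EMP1 and UQCRHL (7.97) just below it, and RGS1 (7.67) and the chemokine gene CCL4 (7.49) stood on either side of TM4SF1. At their PMA levels EMP1 and TM4SF1 ranked 192nd and 348th of all 26210 genes in the first library and 492nd and 701st in the second.

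**Figure D1:**
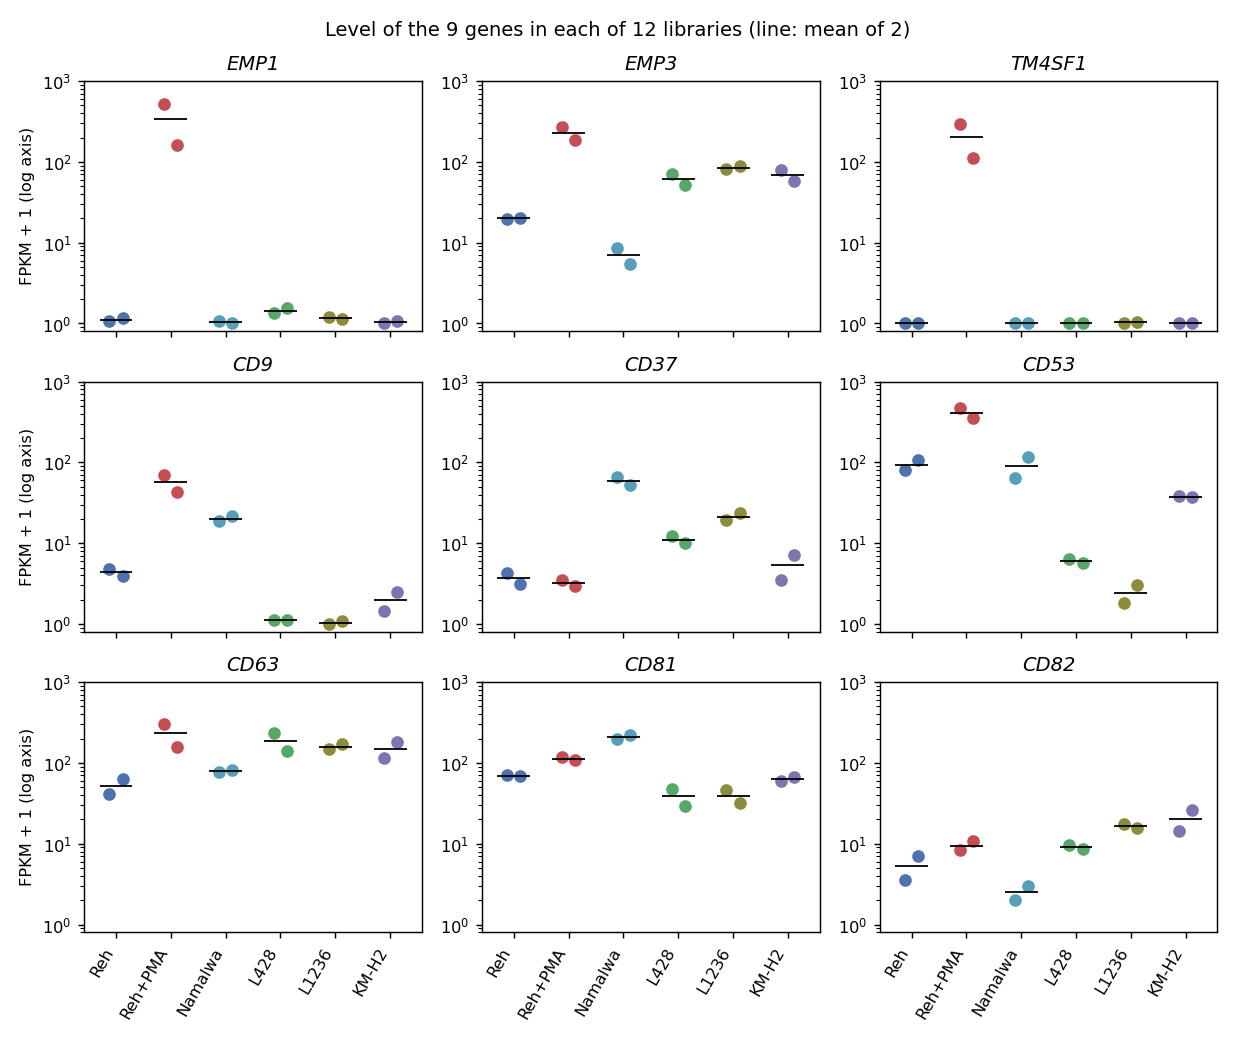
FPKM + 1 on a log axis for each of the 9 genes in the 12 libraries, 2 points per group with a line at their mean. EMP1 and TM4SF1 lie at the bottom of the axis in all groups but PMA-treated Reh, where they reach 523 and 291 FPKM; CD53 is lowest in L1236 and L428, and CD37 and CD81 are highest in Namalwa.

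The 2 PMA libraries lay far apart for EMP1 and TM4SF1. EMP1 was 3.26 times and TM4SF1 2.62 times as high in the first PMA library as in the second, or 1.70 and 1.38 on the log2 scale. CD63 followed at 0.96, CD9 at 0.71, EMP3 at 0.51 and CD53 at 0.37, CD37 and CD81 at 0.24 and 0.13, while CD82 was higher in the second library (-0.36). With the sign ignored, the median gap was 0.20 over all 14679 genes and 0.33 over the 1534 genes called higher after PMA. A larger gap was seen in 0.572% of all genes for EMP1, 0.967% for TM4SF1 and 2.97% for CD63, but in 26.3% for CD53, 43.2% for CD37 and 61.8% for CD81. Among the genes called higher after PMA these shares were 1.11%, 2.67%, 8.735%, 44.1%, 62.8% and 79.1% in the same order. Of the genes called higher after PMA, 71.2% were higher in the first library, against 45.9% of all genes and 35.4% of those called lower. Whether the libraries differed in dose, time or handling was not tested, and both placed EMP1 and TM4SF1 above every untreated library.

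**Figure D2:**
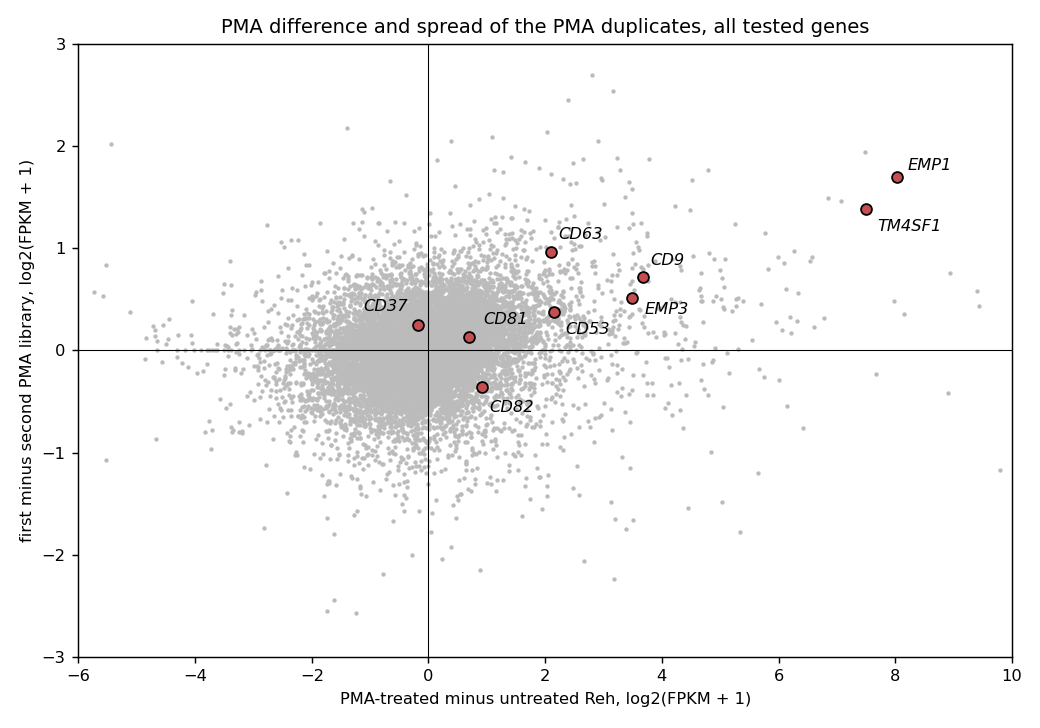
Each point is 1 of 14679 genes: the x axis is the PMA-treated minus untreated Reh difference and the y axis the first minus the second PMA library, both in log2(FPKM + 1). The 9 genes are in red, with EMP1 (8.02, 1.70) and TM4SF1 (7.50, 1.38) at the upper right; 65 genes fall outside the axes.

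PMP22 and EMP2, the PMP22-family genes outside the set, were not called by limma after PMA (log2 differences of -0.02, SE 0.23, and -0.13, SE 0.16; adjusted p = 1.0 and 0.583). PMP22 measured 2.86 and 2.99 FPKM in untreated Reh and 2.73 and 3.01 FPKM after PMA, and EMP2 1.13 and 1.37 FPKM before and 0.961 and 1.14 FPKM after. With quantile normalisation both differences changed sign, to 0.21 and 0.19 (adjusted p = 0.591 and 0.479). EMP1 made up 0.343% and 0.661% of the summed FPKM of the 4 PMP22-family genes in untreated Reh, and 65.9% and 45.7% after PMA. The other 5 L6-family genes did not reach the testing filter. TM4SF18 was at 0.246 and 0.764 FPKM after PMA and the antisense gene TM4SF1-AS1 at 0.112 and 0.535 FPKM, and both were listed at 0 in untreated Reh, where TM4SF20 was at 0.336 FPKM in the first library and at 0 after PMA.

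EMP3 (chr19:48824766-48833810), an EMP1 relative expressed in leukocytes, was present in every line. It measured 18.5 and 19.3 FPKM in untreated Reh and 267 and 187 FPKM after PMA, a ratio of means of 11.99 and a log2 difference of 3.49 (SE 0.29). The treated and untreated duplicates lie far apart. Thus both PMP22-family members of the set were high after PMA, with EMP1 arising from near 0 and EMP3 from a clear baseline.

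Among the 6 tetraspanins, PMA-treated and untreated Reh stood furthest apart for CD9, a regulator of cell adhesion and fusion. CD9 was at 3.76 and 2.94 FPKM in untreated Reh and 69.8 and 42.2 FPKM after PMA, 16.7 times the mean (log2 difference 3.68, SE 0.31). CD53, a tetraspanin of leukocytes in general, was at 78.7 and 105 FPKM before and 465 and 358 FPKM after (4.47 times; 2.15, SE 0.33). CD63 was at 40.6 and 61.8 FPKM before and 305 and 156 FPKM after (4.51 times; 2.10, SE 0.40). For these 3 genes the duplicates of the 2 groups do not meet, as is also so for CD81 and CD82 below. The share of all genes kept apart in this way was not counted.

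For the other 3 tetraspanins the treated and untreated levels lay closer. CD81, a tetraspanin found on most cells, measured 70.0 and 67.4 FPKM before and 117 and 107 FPKM after PMA (1.63 times; log2 difference 0.69, SE 0.27). CD82, known as a suppressor of metastasis, measured 2.55 and 5.97 FPKM before and 7.34 and 9.69 FPKM after (2.00 times; 0.92, SE 0.38). This difference was 0.44 without the first untreated Reh library and 1.41 without the second. CD37, a tetraspanin of mature B cells, measured 3.24 and 2.16 FPKM before and 2.50 and 1.95 FPKM after, and these duplicates overlap. Its difference of -0.19 (SE 0.34) had no stable sign, being 0.07 after quantile normalisation and 0.03 without the first untreated Reh library.

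The remaining tetraspanins were read as a whole list. This list and the other gene lists below were chosen with earlier results of these data known. Their tests and counts are therefore not independent of those results. Of the 27 that are not among the 9 genes, 19 passed the filter and 3 passed the test (limma, adjusted p under 0.05 and a log2 difference of at least 1), against 22.2% of all 14679 genes. TSPAN31 rose from 4.23 and 6.78 FPKM to 24.2 and 19.4 FPKM (log2 difference 1.83, SE 0.47, adjusted p = 0.0176). TSPAN17, a partner of ADAM10, rose from 7.71 and 12.7 FPKM to 53.6 and 19.9 FPKM (1.63, SE 0.41, adjusted p = 0.0152). TSPAN15, another ADAM10 partner, fell from 4.01 and 4.44 FPKM to 0.977 and 1.45 FPKM (-1.25, SE 0.27, adjusted p = 0.00763). None of these 3 calls was secure. TSPAN31 missed the threshold without the first Reh library (1.54, adjusted p = 0.119) or either PMA library (1.68 and 1.98, adjusted p = 0.110 and 0.0587), TSPAN17 without the first Reh or the first PMA library (1.31 and 0.94, adjusted p = 0.114 and 0.0827), and TSPAN15 without the second Reh or the first PMA library (-1.19 and -1.09, adjusted p = 0.053 and 0.0615) and with quantile normalisation (-0.97, adjusted p = 0.0191). The median log2 difference of the 19 genes was 0.0, beside -0.03 for all genes.

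Partners of tetraspanins were also read. Of 13 listed partners 11 were tested, 3 rose and 1 fell, against 22.2% of all genes called (1534 higher and 1731 lower), with a median of 0.50 beside -0.03 for all genes. ITGA6, the integrin alpha 6 chain of laminin receptors, rose from 1.69 and 2.08 FPKM to 553 and 195 FPKM (log2 difference 6.84, SE 0.41, adjusted p = 8.48e-06). HBEGF, the growth factor precursor that CD9 binds, rose from 3.03 and 1.61 FPKM to 161 and 115 FPKM (5.40, SE 0.32, adjusted p = 8.42e-06). ADAM17, a protease that sheds membrane proteins, rose from 25.7 and 18.2 FPKM to 122 and 119 FPKM (2.42, SE 0.25, adjusted p = 0.000183). ITGA4, the integrin alpha 4 chain, fell from 85.0 and 92.5 FPKM to 20.1 and 23.8 FPKM (-1.97, SE 0.20, adjusted p = 0.000165). ITGA6 shared with EMP1 and TM4SF1 the gap between the PMA libraries, being 2.83 times as high in the first.

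Genes of vesicle formation gave 3 calls out of 11 tested, near the 22.2% of all genes called, with a median of 0.03 beside -0.03 for all genes. TSG101, of the ESCRT machinery, rose from 15.7 and 15.4 FPKM to 72.5 and 51.1 FPKM (log2 difference 1.90, SE 0.27), and SDCBP, or syntenin, which links syndecans and CD63 to that machinery, rose from 14.6 and 15.1 FPKM to 69.1 and 46.0 FPKM (1.86, SE 0.25). The syndecan SDC1 fell from 1.82 and 3.99 FPKM to 0.128 and 0.162 FPKM (-1.71, SE 0.32). Before and after PMA the duplicates of these 3 genes do not meet.

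Of 7 listed early-response genes 6 rose after PMA, against 1534 of all 14679 genes, among them EGR1 (0.138 and 0.0349 FPKM before, 62.1 and 76.2 FPKM after), NR4A1 (log2 difference 5.08), FOS (4.69), DUSP5 (4.52) and the activation marker CD69 (2.99 and 2.56 FPKM before, 61.3 and 64.5 FPKM after). JUN missed the threshold (2.43 and 1.31 FPKM before, 13.7 and 5.51 FPKM after; adjusted p = 0.0613) but passed it with a pseudocount of 0.1 FPKM (2.22, adjusted p = 0.0393). Markers of cells in which EMP1 and TM4SF1 are better known were near 0 in the PMA libraries: the 5 epithelial genes summed to 0.04998 and 0.145 FPKM, the 4 endothelial genes to 0.101 and 0.0918 FPKM and the 5 fibroblast genes to 0.205 and 0.265 FPKM. The 5 monocyte and macrophage genes summed to 4.78 and 4.02 FPKM in untreated Reh and 20.3 and 17.3 FPKM after PMA, of which CSF1R gave 11.8 and 11.2 FPKM after PMA and was called. CD68 was at 1.03 and 1.17 FPKM before and 6.97 and 2.73 FPKM after (adjusted p = 0.101), ITGAM at 2.56 and 2.26 FPKM before and 1.23 and 2.97 FPKM after, and CD14 and LYZ were under 1 FPKM throughout. The part of these genes in the results was not tested. The 5 precursor B genes summed to 807 and 757 FPKM before and 91.4 and 71.9 FPKM after, and 3 were called lower, against 1731 of all 14679 genes. These were RAG1 (435 and 384 FPKM before, 5.09 and 11.85 FPKM after), RAG2 (161 and 152.5, then 3.59 and 7.37) and MME (123 and 118, then 7.72 and 11.1). DNTT was at 87.9 and 103 FPKM before and 75.0 and 41.6 FPKM after, most of the sum there. VPREB1 was at 0 in these Reh libraries. Of the 6 B lineage genes 3 fell after PMA by limma, against 1731 of all 14679 genes: CD79B, a chain of the B-cell receptor complex, from 394 and 414 FPKM to 38.98 and 86.2 FPKM, and the transcription factors PAX5, from 64.1 and 52.5 FPKM to 11.3 and 17.4 FPKM, and EBF1, from 82.9 and 66.2 FPKM to 24.4 and 15.01 FPKM. CD79A, the partner chain of CD79B, measured 336 and 428.5 FPKM before and 947 and 1102 FPKM after and was not called (1.43, adjusted p = 0.0602), but was with quantile normalisation (2.00, adjusted p = 0.0103), a robust prior or a block on the column suffix (1.43, adjusted p = 0.0483 and 0.038). Their part in the levels of the 9 genes was not tested.

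Genes with the pattern most like EMP1 over the 12 libraries were LINC00974 (Pearson r = 0.998), TM4SF1 (0.998), TGFBI (0.998), LOC101928416 (0.998) and LOC100507065 (0.998), and those most like TM4SF1 were LINC00974, LOC101928416, TGFBI, CD1A and VWC2. These correlations describe 1 contrast: the 2 PMA libraries lie apart from 10 libraries near 0 for each of these genes, as TGFBI does at 25.9 FPKM on average after PMA and 0.0197 FPKM before.

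EMP1 and TM4SF1 stayed under 1 FPKM in all 6 cHL libraries. Since these 2 genes passed the filter through the PMA libraries alone, their levels in the untreated lines are given with no test. In order of its level, EMP1 ran from PMA-treated Reh through L428, L1236, untreated Reh, Namalwa and KM-H2, and the duplicates of L1236 and untreated Reh overlap, as do those of Namalwa and KM-H2.

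EMP3, CD63 and CD82 had line means in the cHL lines above those of both untreated control lines, and CD9, CD53 and CD81 below them, but none passed the test over lines. The question here is how the membrane proteins of cHL cells, which have lost much of the B-cell programme, compare with those of other B-cell tumours. The line is the replicate in this comparison, with 3 lines against 2. Here and in the comparisons of untreated lines that follow, counts are over the 7 genes that reached 1 FPKM in 2 untreated libraries, without EMP1 and TM4SF1. None of the 7 passed the adjusted threshold (limma), against 0.545% of all genes (80 genes, with 1983 at an unadjusted p under 0.05), and 6 of the 7 were under an unadjusted p of 0.05. An exact two-sided permutation test over the lines cannot go below 0.2. The line means of these 6 genes do not overlap between cHL and control lines, as is so for 34.7% of all genes tested.

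EMP3 measured 70.0 and 51.4 FPKM in L428, 79.6 and 87.3 FPKM in L1236 and 77.9 and 56.5 FPKM in KM-H2, against 18.5 and 19.3 FPKM in Reh and 7.63 and 4.46 FPKM in Namalwa. Every cHL library was above every untreated control library, and the mean of the cHL line means was 5.64 times that of the controls (70.4 ± 11.7 against 12.5 ± 9.10 FPKM, SD over 3 and 2 lines). The log2 difference over lines was 2.59 (SE 0.50, adjusted p = 0.137). The PMA-treated Reh libraries stood above all 6 cHL libraries, and among neighbouring groups in the order of EMP3 the duplicates of KM-H2 and L428 overlapped.

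CD82 measured 8.54 and 7.65 FPKM in L428, 16.4 and 14.8 FPKM in L1236 and 13.6 and 25.5 FPKM in KM-H2, against 2.55 and 5.97 FPKM in Reh and 1.01 and 1.99 FPKM in Namalwa. The cHL libraries were all above the untreated control libraries, with a ratio of means of 5.00 and a log2 difference over lines of 2.04 (SE 0.55, adjusted p = 0.229). CD63 measured 237 and 139 FPKM in L428, 149 and 168 FPKM in L1236 and 114 and 183 FPKM in KM-H2, against 40.6 and 61.8 FPKM in Reh and 76.1 and 79.7 FPKM in Namalwa. Again no library of the groups crossed, with a ratio of 2.56 and a log2 difference of 1.35 (SE 0.30, adjusted p = 0.176). The order of CD63 among the cHL lines could not be set, since the duplicates of L428, L1236 and KM-H2 overlap.

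CD53 went the other way, with a wide range among the cHL lines. It measured 5.33 and 4.65 FPKM in L428, 0.830 and 2.02 FPKM in L1236 and 37.0 and 35.9 FPKM in KM-H2, against 78.7 and 105 FPKM in Reh and 63.1 and 117 FPKM in Namalwa. All cHL libraries were below all control libraries, with a mean 6.38 times lower (14.3 ± 19.3 against 91.0 ± 1.46 FPKM, SD over 3 and 2 lines). The log2 difference over lines was -3.47 (SE 1.15, adjusted p = 0.300). Both KM-H2 libraries stood well above those of the other 2 cHL lines.

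CD9 was at 0.127 and 0.131 FPKM in L428, 0 and 0.0756 FPKM in L1236 and 0.464 and 1.495 FPKM in KM-H2, against 3.76 and 2.94 FPKM in Reh and 17.7 and 20.5 FPKM in Namalwa (log2 difference over lines -2.83, SE 0.76, adjusted p = 0.233). The duplicates of the 5 lines did not overlap, in the order Namalwa, Reh, KM-H2, L428 and L1236. L428 and L1236 were both near 0, so the order of these lines is not read. CD81 was at 47.1 and 28.7 FPKM in L428, 45.5 and 30.9 FPKM in L1236 and 59.0 and 65.7 FPKM in KM-H2, against 70.0 and 67.4 FPKM in Reh and 195 and 222 FPKM in Namalwa (-1.42, SE 0.54, adjusted p = 0.350). The Reh and KM-H2 libraries of CD81 lay close together, while Namalwa lay far above both. CD81-AS1, which is antisense to CD81, was at most 0.698 FPKM in any library, and whether the counting used strand is not given. CD37 was at 11.2 and 9.02 FPKM in L428, 18.4 and 22.4 FPKM in L1236 and 2.47 and 6.24 FPKM in KM-H2, against 3.24 and 2.16 FPKM in Reh and 64.7 and 50.8 FPKM in Namalwa. Since the control lines lie at both ends of its range, the log2 difference of CD37 was -0.47 (SE 1.27, adjusted p = 0.877), and it was 1.53 without Namalwa and 0.07 without KM-H2.

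Set one by one against the mean of Reh and Namalwa, each cHL line had 6 of the 7 genes called by limma over libraries, where the spread between duplicates and not between lines is the error, and the 3 comparisons share these 4 control libraries. The background was 30.0% of all genes in L428, 29.0% in L1236 and 30.4% in KM-H2. EMP3, CD63 and CD82 were called higher and CD9 and CD53 lower in all 3 lines; CD81 was called lower in L428 and L1236, and CD37 lower in KM-H2 (-1.54, SE 0.29, adjusted p = 0.0022). The CD37 call rests on Namalwa, at 64.7 and 50.8 FPKM, since the KM-H2 duplicates (2.47 and 6.24 FPKM) overlap those of Reh (3.24 and 2.16 FPKM). EMP3 differed by 2.38 (SE 0.25, adjusted p = 6.05e-05) in L428, 2.85 (SE 0.25, 1.76e-05) in L1236 and 2.53 (SE 0.25, 3.88e-05) in KM-H2. CD53 differed by -3.90 (SE 0.29, adjusted p = 6.45e-06), -5.25 (SE 0.29, 8.82e-07) and -1.26 (SE 0.29, 0.00625) in the same order, and CD9 by -3.04, -3.17 and -2.28 (SE 0.27 each, adjusted p at most 0.000108).

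**Figure D3:**
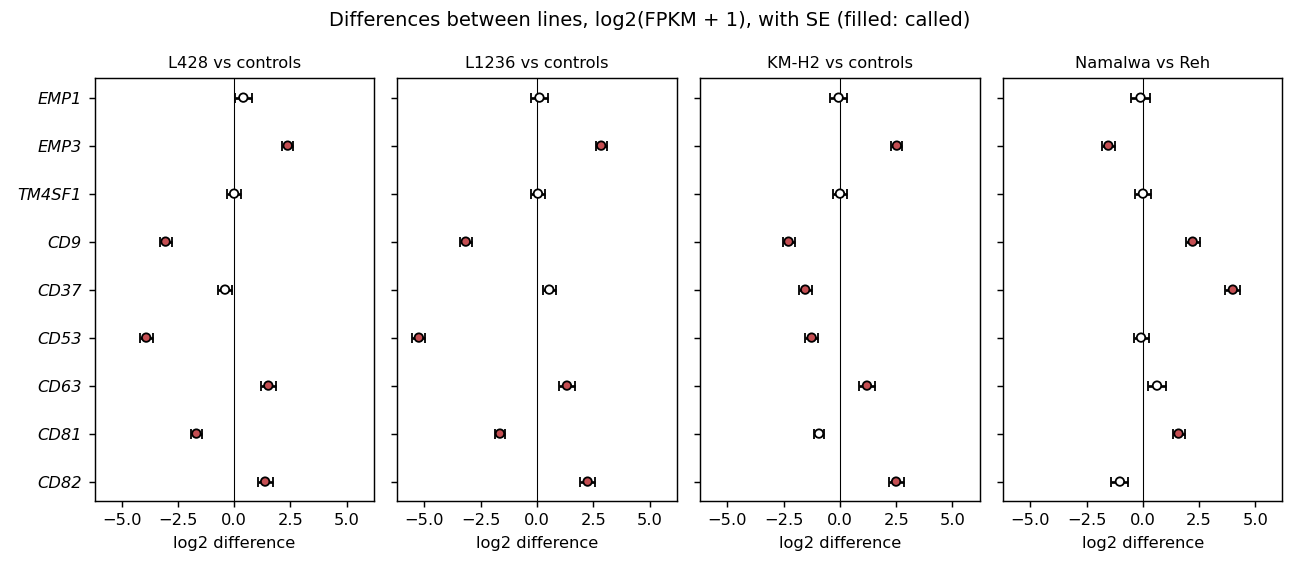
Log2(FPKM + 1) differences of the 9 genes with their SE, for L428, L1236 and KM-H2 against the mean of Reh and Namalwa and for Namalwa against Reh; filled points passed adjusted p under 0.05 with a difference of at least 1, and EMP1 and TM4SF1 are shown as values only. EMP3 is at 2.38 to 2.85 and CD9 at -3.17 to -2.28 in the cHL panels, while CD37 is at 3.995 in Namalwa.

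CD82 differed by 1.38 (SE 0.33, adjusted p = 0.00791) in L428, 2.25 (SE 0.33, 0.000501) in L1236 and 2.49 (SE 0.33, 0.000256) in KM-H2. CD81 differed by -1.67 and -1.65 (SE 0.23 each, adjusted p = 0.000338 and 0.000374) in L428 and L1236 and by -0.93 (SE 0.23, 0.00915) in KM-H2, under the size threshold there; without the second KM-H2 library it was -1.01 (adjusted p = 0.0356). CD63 was the least secure, at 1.52, 1.33 and 1.20 (SE 0.35 each; adjusted p = 0.00585, 0.0119 and 0.0184). Its call was lost without the first L428 library (1.14, adjusted p = 0.0589), without the first or the second L1236 library (1.42 and 1.24, adjusted p = 0.0518 and 0.0857), and in KM-H2 without its second library (0.86, adjusted p = 0.162) or without the first Reh library (1.05, adjusted p = 0.0575).

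When the second libraries of the 3 cHL lines, those rich in small nucleolar RNAs, were all left out, each cHL line was a single library assumed to vary like the controls. The SD of the log2 difference between duplicates over all genes was 0.393 to 0.575 in the control groups and 0.850 to 0.949 in the cHL lines, so the error there came from the tighter groups, and the calls still made are not read as kept. CD82 in L428 (1.45, adjusted p = 0.0787), CD63 in L1236 and KM-H2 (1.24 and 0.86, adjusted p = 0.0991 and 0.199) and CD53 in KM-H2 (-1.24, adjusted p = 0.0801) were no longer called even so. The B lineage and Hodgkin marker sums given above also separate the cHL lines from the controls, and their part in these differences was not tested. L1236 also had the endothelial gene PECAM1 at 32.0 and 17.5 FPKM, with under 1 FPKM in all other lines, and the fibroblast gene COL3A1 at 3.51 and 4.69 FPKM, with at most 0.0140 FPKM elsewhere. The other 3 endothelial genes (CDH5, VWF and KDR) were at most 0.0300 FPKM and the other 4 fibroblast genes at most 0.201 FPKM in L1236. CDH1, the only 1 of 5 epithelial genes tested, was called higher in L1236 (1.06), at 0.712 and 1.55 FPKM. The fibroblast gene COL1A1 was called higher in KM-H2, at 1.06 and 3.675 FPKM, where the other 4 were at most 0.178 FPKM. The part of these genes was not tested. A lower level of a transcript in a bulk library can mean fewer cells with it or less RNA per cell, which cannot be told apart here.

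Within the cHL lines, KM-H2 stood apart for CD53 and CD37. CD53 was higher in KM-H2 than in L428 and L1236 together by 3.32 (SE 0.29, adjusted p = 2.31e-05), and CD37 was lower by 1.61 (-1.61, SE 0.29, adjusted p = 0.00218), while 23.8% of all genes were called. CD9 and CD81 were also higher in KM-H2 by 0.82 (SE 0.27, adjusted p = 0.0362) and 0.73 (SE 0.23, adjusted p = 0.033), under the size threshold of 1, although CD9 passed it without the first KM-H2 library (1.21, adjusted p = 0.0154) and with a pseudocount of 0.1 FPKM (2.44, adjusted p = 0.00237). Of the 4 listed T-cell genes, KM-H2 had CD3D at 13.5 and 22.5 FPKM and CD3G at 3.25 and 2.85 FPKM, but CD2 at 0.779 and 1.01 FPKM and CD3E at 0.197 and 0 FPKM, and L428 and L1236 had CD3D at 0. Of the 5 monocyte and macrophage genes, CD14 was at 5.79 and 4.56 FPKM and ITGAM at 9.14 and 4.24 FPKM in KM-H2 and both were under 1 FPKM in L428 and L1236, LYZ was under 1 FPKM in all 3 lines, CSF1R was at most 2.05 FPKM, and CD68 was higher in L428 (23.9 and 9.86 FPKM) than in KM-H2 (1.26 and 5.73 FPKM). Whether these genes go with CD53 was not tested.

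Between L428 and L1236 1 of the 7 genes was called, against 21.9% of all genes. CD53 was higher in L428 by 1.35 (SE 0.33, adjusted p = 0.0144), but this was lost without the first L428 library (1.26, adjusted p = 0.066) and without the first L1236 library (0.98, adjusted p = 0.113). CD37 was lower in L428 by 0.95 (-0.95, SE 0.34, adjusted p = 0.064). CD82 and EMP3 differed by -0.87 (SE 0.38, adjusted p = 0.125) and -0.47 (SE 0.29, adjusted p = 0.274) and did not pass, although for both genes the duplicates of L428 lie below those of L1236 without overlap. CD63 and CD81 differed by 0.19 (SE 0.40) and -0.03 (SE 0.27), and their duplicates overlap between the lines.

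The 2 control lines were themselves unlike. Between Namalwa and Reh 4 of the 7 genes were called, against 19.0% of all genes. CD37 was higher in Namalwa by 3.995 (SE 0.34, adjusted p = 2.62e-05), CD9 by 2.21 (SE 0.31, adjusted p = 0.000614) and CD81 by 1.58 (SE 0.27, adjusted p = 0.00201), whereas EMP3 was lower by 1.54 (-1.54, SE 0.29, adjusted p = 0.00381). CD82 differed by -1.02 (SE 0.38, adjusted p = 0.0859) and reached the threshold without the first Reh library (-1.51, adjusted p = 0.0401) and with a block on the column suffix (-1.02, adjusted p = 0.0425). CD53 and CD63 differed by -0.08 (SE 0.33) and 0.63 (SE 0.40), and neither passed. PMA-treated Reh thus came to exceed Namalwa in CD9, with 69.8 and 42.2 FPKM against 17.7 and 20.5 FPKM, and stayed below it in CD37 and CD81.

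The wider tetraspanin family showed which genes accompany these 6. Of the 27 listed tetraspanins outside the set 19 were tested, and 11 were called in L428 (9 higher, 2 lower), 9 in L1236 (7 higher, 2 lower) and 5 in KM-H2 (4 higher, 1 lower), against 30.0%, 29.0% and 30.4% of all genes. The KM-H2 count is thus near that of all genes. The medians were 0.86, 0.45 and 0.72 beside -0.01, -0.01 and 0 for all genes. Over line means none of the 19 was called by limma (5 at an unadjusted p under 0.05), against 0.545% of all genes, with a median of 0.80 beside 0.02 for all genes.

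TSPAN33, a tetraspanin of activated B cells, was called higher in L428 and L1236. It measured 111 and 244 FPKM in L428, 57.4 and 70.5 FPKM in L1236 and 13.8 and 20.02 FPKM in KM-H2, against 7.11 and 6.67 FPKM in Reh and 10.8 and 9.63 FPKM in Namalwa. The differences were 4.14 (SE 0.32, adjusted p = 8.74e-06) in L428 and 2.78 (SE 0.32, adjusted p = 0.000111) in L1236, and KM-H2 was not called.

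TSPAN8, a tetraspanin of gut and tumour epithelium, measured 34.2 and 26.3 FPKM in L428 and at most 0.204 FPKM in each of the other 10 libraries (L428 against controls 4.95, SE 0.14, adjusted p = 7.78e-08). TSPAN5, an ADAM10 partner, measured 22.7 and 17.4 FPKM in L1236 and 17.3 and 6.58 FPKM in KM-H2, against 1.07 and 1.31 FPKM in Reh and 0.0631 and 0.0717 FPKM in Namalwa. It was called higher in all 3 cHL lines, by 1.22 in L428, 3.77 in L1236 and 2.94 in KM-H2. TSPAN15 was also called higher in all 3, by 1.10, 1.30 and 2.90, and reached 29.8 and 44.2 FPKM in KM-H2. In L428 the TSPAN5 call was lost without the first L428 library (1.16, adjusted p = 0.0565), and TSPAN15 fell under the size threshold without the second (0.84, adjusted p = 0.0466). TSPAN14, another ADAM10 partner, was called lower in all 3, by 2.18 (-2.18), 1.39 (-1.39) and 2.35 (-2.35), and measured 20.6 and 18.6 FPKM in Reh and 6.72 and 4.10 FPKM in Namalwa, against 1.97 and 1.10 FPKM in L428, 3.49 and 3.18 FPKM in L1236 and 1.32 and 1.13 FPKM in KM-H2. ADAM10 itself, at 8.32 to 24.0 FPKM in the untreated libraries, was not called in any of these 3 comparisons, but was higher in KM-H2 without the second KM-H2 library (1.18, adjusted p = 0.00527).

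The other tetraspanins with large differences were each called in 1 or 2 lines. In L428 TSPAN2 was called higher by 2.34, at 2.36 and 7.67 FPKM against at most 0.207 FPKM in the controls, and TSPAN3 lower (-1.18), at 16.8 and 20.1 FPKM against 36.9 to 54.5 FPKM. TSPAN13 was called higher in L428 (1.96) and lower in L1236 (-1.55), but the control lines lie at both ends of its range, at 34.2 and 48.1 FPKM in Reh and 0.177 and 0.0670 FPKM in Namalwa, with L428 (21.8 and 30.0 FPKM) and L1236 (1.24 and 1.43 FPKM) between them. The L1236 call was lost with a pseudocount of 0.1 FPKM (-1.04, adjusted p = 0.0802). TSPAN31 was higher in L1236 (1.92), at 17.1 and 33.4 FPKM against 4.23 to 7.02 FPKM, but missed the threshold without the second L1236 library (1.45, adjusted p = 0.0626). TSPAN10 and TSPAN11 were higher in KM-H2 (1.26 and 1.13), at 1.01 to 2.52 FPKM against at most 0.321 FPKM, and both fell under the size threshold without the first KM-H2 library (0.91 and 0.85) and with quantile normalisation (0.95 and 0.86).

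Partners of tetraspanins were also read by line. Of the 10 tested partners reported here, 1 was called higher and 2 lower in L428, 3 higher and 2 lower in L1236, and 4 higher and 3 lower in KM-H2, against 30.0%, 29.0% and 30.4% of all genes. The L428 count is thus at the share of all genes. Over line means none of the 10 was called by limma, against 0.545% of all genes. CR2, a complement receptor of B cells, measured 231 and 97.7 FPKM in KM-H2 and at most 2.12 FPKM elsewhere (KM-H2 against controls 6.48, SE 0.30, adjusted p = 3.56e-07). IFITM1, an interferon-induced membrane protein that binds CD81, was called higher in L428, L1236 and KM-H2 by 3.35, 4.73 and 3.42. It measured 111 and 77.6 FPKM in L428, 169 and 351 FPKM in L1236 and 64.2 and 148 FPKM in KM-H2, against 20.9 and 27.2 FPKM in Reh and 2.44 and 2.37 FPKM in Namalwa. The integrin alpha 3 chain ITGA3 was called higher in L1236 and KM-H2 (2.62 and 1.65), and the integrin beta 1 chain ITGB1 in KM-H2 (1.16). The ITGB1 call was lost without the second libraries of all cHL lines (1.20).

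HBEGF was called lower in all 3 lines, by 1.06 (-1.06), 1.42 (-1.42) and 1.53 (-1.53), with at most 0.544 FPKM in the cHL libraries against 3.03 and 1.61 FPKM in Reh and 1.07 and 2.70 FPKM in Namalwa. In L428 the call was lost without the first Reh, the second Namalwa or the first L428 library (-0.91, -0.85 and -0.96). Without the second libraries of all cHL lines HBEGF was no longer called in any of the 3 lines (-1.17, -1.48 and -1.58). ITGA6 was called lower in L1236 and KM-H2 (-1.72 and -1.73), with at most 0.0600 FPKM there against 1.69 to 3.66 FPKM in the controls. Both ITGA6 calls were lost without the second libraries of all cHL lines (-1.70 and -1.72). ITGA4 was lower in KM-H2 (-2.73), at 4.56 and 4.53 FPKM, and higher in L1236 (1.16), at 72.1 and 92.2 FPKM, where it lay between Reh (85.0 and 92.5 FPKM) and Namalwa (12.7 and 15.8 FPKM) on average and missed the size threshold without the second L1236 library (0.99). IGSF8, an immunoglobulin-domain partner of CD9 and CD81, was called lower in L428 (-1.18, adjusted p = 0.0165), but not without the second Reh or the second L428 library (-1.06 and -0.79, adjusted p = 0.0516 and 0.167). That call rests on Namalwa (24.9 and 41.5 FPKM), since the L428 duplicates (9.87 and 5.28 FPKM) overlap those of Reh (7.94 and 11.5 FPKM).

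Of the other PMP22-family genes, EMP2 was called higher in KM-H2 by 2.65 (SE 0.14, adjusted p = 6.20e-07), at 8.75 and 8.14 FPKM against at most 1.66 FPKM elsewhere. PMP22 was called higher in L1236 by 1.99 (SE 0.20, adjusted p = 4.75e-05), at 8.68 and 5.65 FPKM, and lower in KM-H2 (-1.01, SE 0.20), where both libraries were at 0. The latter rests on Reh (2.86 and 2.99 FPKM), since Namalwa was at 0 and 0.0786 FPKM, and fell under the size threshold without the second Namalwa library (-0.99, adjusted p = 0.0111). EMP3 nevertheless made up 87.3% to 94.2% of the summed FPKM of this family in the cHL libraries. Among vesicle genes 5 of 11 were called in L428 (4 higher), 2 in L1236 (1 higher) and 5 in KM-H2 (5 higher), against 30.0%, 29.0% and 30.4% of all genes, so that the L1236 count is below the share of all genes. Over line means none of the 11 was called by limma, against 0.545% of all genes. The syndecan SDC4, listed at 0 in all 6 libraries of Reh, PMA-treated Reh and Namalwa, measured 10.1 and 14.1 FPKM in L428, 3.25 and 5.18 FPKM in L1236 and 39.8 and 57.1 FPKM in KM-H2, and RAB27B, a GTPase of vesicle release, 7.92 and 5.96 FPKM in L428 and 1.47 and 1.66 FPKM in KM-H2, against at most 0.0895 FPKM in untreated Reh and Namalwa. RAB27A, another such GTPase, was called higher in L428 and KM-H2 (1.06 and 1.45; in L428 it was 0.89 and under the size threshold with quantile normalisation), the lysosomal membrane protein LAMP2 in L428 (1.65) and the ESCRT ATPase gene VPS4A in KM-H2 (1.15). VPS4B, its close relative, was called lower in L428 (-1.74) and SDCBP in L1236 (-1.18). The SDCBP call was lost without the second libraries of all cHL lines (-1.16).

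The make-up of the tetraspanin transcripts thus differed between groups. Summed over the 33 genes, tetraspanin FPKM was 350 and 429 in untreated Reh, 1219 and 860 after PMA, 505 and 593 in Namalwa, 577 and 614 in L428, 433 and 478 in L1236 and 394 and 504 in KM-H2. CD53 was the leading gene in Reh, at 22.5% and 24.6% before and 38.1% and 41.7% after PMA. CD81 led in Namalwa, at 38.6% and 37.5%. CD63 led in L1236 (34.4% and 35.2%) and KM-H2 (29.0% and 36.4%), and in L428 it led in the first library (41.1%) while TSPAN33 led in the second (39.7%). The 6 tetraspanins of the set together held 78.5% to 79.3% of the sum in PMA-treated Reh, 82.7% to 83.0% in Namalwa, 56.8% to 57.3% in untreated Reh and 30.8% to 63.1% in the cHL libraries.

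**Figure D4:**
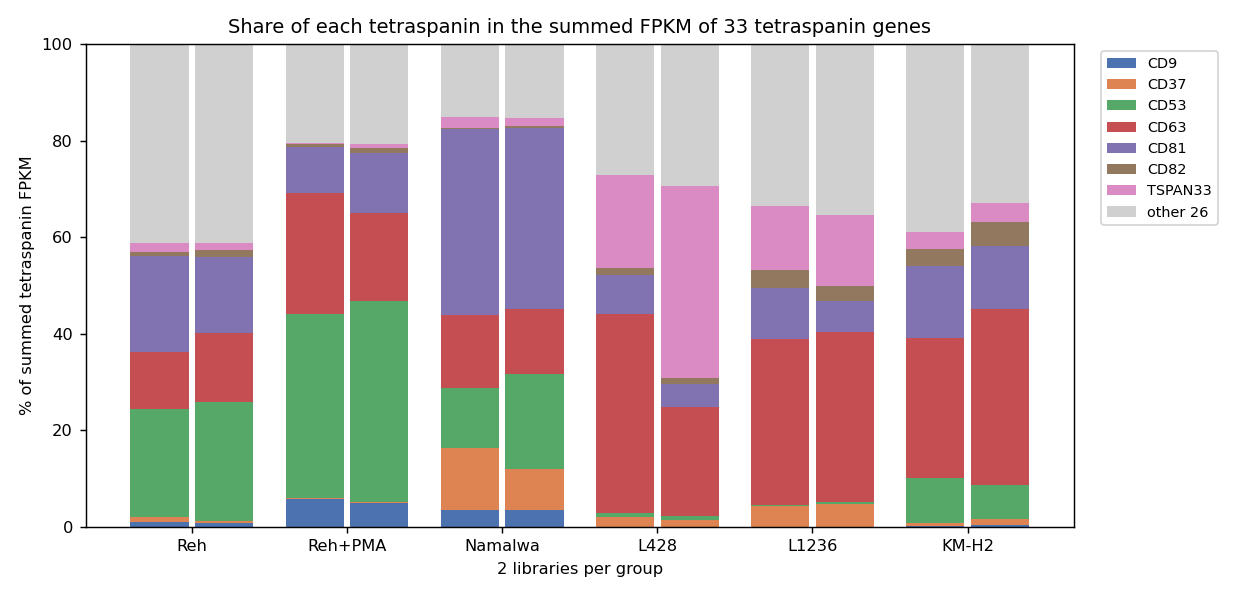
Share of each gene in the summed FPKM of 33 tetraspanin genes, in percent, 1 stacked bar per library. CD53 takes 38.1% and 41.7% after PMA, CD81 38.6% and 37.5% in Namalwa and CD63 22.6% to 41.1% in the cHL lines, where TSPAN33 reaches 39.7% in the second L428 library.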

How the data were processed

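Total RNA of 5 established cell lines, with Reh also after 2 ng/ml PMA, was sequenced from Ribo-Zero depleted stranded libraries on 2 Illumina instruments, and which library ran on which is not given. Per the submitters' processing notes, the authors used TopHat2 2.0.11 and Cuffnorm 2.2.1 with hg19 and deposited 1 table of FPKM values per gene. Cuffnorm's scaling, annotation and strand setting are not given in the sources used here, so differences are relative to that scaling. FPKM hold no counts, so no count test was run and no interval from depth can be given.

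From the deposited FPKM, genes with at least 1 FPKM in at least 2 of 12 libraries were kept (14679 of 26210), and log2(FPKM + 1) was fitted with limma 3.58.1 (R 4.3.3) with a trended prior, 1 term per group and all 12 libraries sharing 1 estimate of the spread. The comparison of cHL with control lines used the 5 untreated line means. Called means a Benjamini-Hochberg adjusted p under 0.05 over all genes tested and an absolute log2 difference of at least 1. Fold changes on this scale understate those of low genes. The fit was tested on simulated data.

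The 9 genes and the lists were chosen with earlier results of these data known. Named besides the 9 were, per list and comparison described for it, called genes with up to the 4 largest differences in each direction, and the 5 genes most correlated with EMP1 and with TM4SF1. PMP22, EMP2, TM4SF18, TM4SF1-AS1, CD81-AS1, ADAM10, JUN, CD69, CSF1R, PECAM1, COL1A1, COL3A1, CDH1, CDH5, VWF, KDR, CD14, CD68, ITGAM, LYZ, CD79A, CD79B, MS4A1, PAX5, EBF1, RAG1, RAG2, MME, DNTT, VPREB1, TNFRSF8, CCL17, FSCN1, CD2, CD3D, CD3E, CD3G, TM4SF20 and the genes next to EMP1 and TM4SF1 in the order of rises were named after their values were seen. Columns carry the suffixes 0 and 1 while the labels number the replicates 1 and 2, so columns were assigned to groups only and given in suffix order. Alternatives tried were a pseudocount of 0.1 FPKM, other filters, quantile normalisation, a robust prior, a block on the column suffix and each library or line left out. The result for 1 listed gene is not reported here.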

Additional observations from a re-analysis of the deposited data

Results flagged for a closer look

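In 3 cases a difference from the same controls was not the same in the cHL lines by a test of the difference itself (limma over libraries). For CD53, KM-H2 exceeded L428 and L1236 by 3.32 (SE 0.29, adjusted p = 2.31e-05), with both KM-H2 libraries above all 4 others. For CD37, KM-H2 was lower by 1.61 (-1.61, SE 0.29, adjusted p = 0.00218), with both libraries below all 4 others. For CD53, L428 exceeded L1236 by 1.35 (SE 0.33, adjusted p = 0.0144), with both L428 libraries above both of L1236; this call was lost without the first L428 library (1.26, adjusted p = 0.066), without the first L1236 library (0.98, adjusted p = 0.113) and without the second libraries of all cHL lines (1.79, adjusted p = 0.0861). Their causes were not tested.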

How the results depend on the processing

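Outside the PMA comparison, 623 values under an alternative, of the 7 genes that reached 1 FPKM in 2 untreated libraries, kept their direction and side of the threshold, 12 lost a call, 18 gained one and 12 changed sign. After PMA, 84 of the 9 genes' values moved by less than the spread between duplicates, 4 moved by more and 2 changed sign. Those that moved by more were EMP1 and TM4SF1 with a pseudocount of 0.1 FPKM (10.4 and 10.8). The others were TM4SF1 without the first PMA library (6.81) and CD81 with quantile normalisation (0.47). The changes of sign were in small differences: CD37 after PMA (0.0669 with quantile normalisation, and -0.401 to 0.0254 without 1 library); CD53 in Namalwa against Reh (-0.52 to 0.36 without 1 library, above 0 without the second Reh or the first Namalwa library); EMP3 in KM-H2 against the other cHL lines (-0.32 to 0.14 without 1 library, above 0 without the first L428 or the second KM-H2 library, and 0.0601 without the second libraries of all cHL lines); CD63 in that comparison (-0.56 to 0.11, above 0 without the first KM-H2 library); CD63 in L428 against L1236 (-0.19 to 0.58, below 0 without the first L428 library); CD81 in L428 against L1236 (-0.38 to 0.32, above 0 without the second L428 or the first L1236 library, and 0.0486 without the second libraries of all cHL lines); and CD37 in cHL against control lines (-2.47 to 1.53 without 1 library or line, above 0 without Namalwa and without KM-H2). Of the other named genes 894 values kept direction and side, 34 lost a call and 6 gained one; 4 changed sign, in the PMA comparison of PMP22 (0.21 with quantile normalisation, -0.0741 to 0.0306 without 1 library) and EMP2 (0.19 with quantile normalisation).

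The count of genes called between cHL and control lines, 80, was 11 with no filter on low values, 3614 when the 12 libraries and not the lines were the error, and 5 without the second libraries of all cHL lines, the last chosen after seeing the data. It ranged from 0 to 183 when a library or a line was left out, being 0 without Reh, L428, L1236 or KM-H2 and 183 without Namalwa. Under the 12-library fit EMP3, CD9, CD53, CD63, CD81 and CD82 were all called (adjusted p at most 0.00179), since duplicates vary less than lines. The count after PMA, 3265, ranged from 2082 to 2745 without 1 library. In all other comparisons the counts without a library stayed within 1.5 times the full count.

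Column suffixes do not match the replicate numbers of the labels, so the planned block on the label's number could not be run. A replicate block on the column suffix, added after seeing the data, gave 3643 genes between cHL and control lines in the 12-library fit and 3456 after PMA. With the block CD82 was also called in Namalwa against Reh (-1.02, adjusted p = 0.0425), and no call of the 7 genes over libraries was lost. The suffix deviations correlated at 0.357 between Reh and Namalwa and at 0.301 to 0.681 among the cHL lines, but at -0.045 to 0.192 in the other 11 pairs of groups, and no label says that a suffix marks a shared batch, so the suffixes were not taken to pair the libraries. Depth is unknown, and 2 libraries per group limit the precision; levels under 1 FPKM are compared only loosely.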
